A study of Homo sapiens with 6 samples.

Results

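Calcineurin, the RCAN proteins and the NFAT transcription factors form a calcium-driven signalling circuit, and the transcripts of 10 of its genes were followed here after silencing of the kinase DYRK1A in T98G cells. The genes were picked by symbol from the 23026 human genes of the normalized count table: PPP3CA, PPP3CB and PPP3R1 (calcineurin subunits), RCAN1 and RCAN3 (calcineurin inhibitors), and NFATC1, NFATC2, NFATC3, NFATC4 and NFAT5. T98G is a human glioblastoma cell line. Lentivirus delivered either a control hairpin (shControl, 3 libraries) or a short hairpin RNA that targets DYRK1A (shDYRK1A, 3 libraries), and the infected cells were selected with puromycin, and mixed with Drosophila Kc167 cells, whose reads set a scale per number of human cells. The libraries are called 1A, 1B and 1C in both groups, and values are given in that order throughout. All of them carry an integrated hairpin virus and come from the same cell line, and the sequencing labels name a single hairpin against DYRK1A. The study's methods say in general that experiments were repeated independently, but no label or method ties these libraries to separate cultures. The p-values measure only the spread between these libraries, which may be technical.

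When calcium rises, calmodulin binds calcineurin, a phosphatase made of a catalytic A subunit and a regulatory B subunit, and calcineurin strips phosphates from cytoplasmic NFATc proteins, which then enter the nucleus. RCAN proteins bind calcineurin and restrain it, and RCAN1 is itself a well-known NFATc target, which closes a feedback loop. DYRK1A and other kinases put phosphates back on NFATc proteins and send them out of the nucleus, whereas NFAT5 lacks the calcineurin docking region and is best known for its response to osmotic stress. RCAN1 and DYRK1A lie on the same arm of chromosome 21, 2.75 Mb apart.

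RCAN1 (ENSG00000159200, GRCh38 chr21:34513142-34615142, minus strand) has several start sites, and the counts analysed here sum the transcripts of all of them. An internal start gives a short isoform that is known for its induction by calcineurin and NFAT, while the distal start is known for steadier use. The 250 bases before each of these starts are shown because a change in the RCAN1 count could come from either, or from the other starts. They come from RefSeq on GRCh38.p14, minus strand, from chr21:34615114-34615363 (distal) and chr21:34526823-34527072 (internal), and capitals mark GGAAA, the core recognised by NFAT proteins, or its reverse strand TTTCC.
RCAN1 distal start: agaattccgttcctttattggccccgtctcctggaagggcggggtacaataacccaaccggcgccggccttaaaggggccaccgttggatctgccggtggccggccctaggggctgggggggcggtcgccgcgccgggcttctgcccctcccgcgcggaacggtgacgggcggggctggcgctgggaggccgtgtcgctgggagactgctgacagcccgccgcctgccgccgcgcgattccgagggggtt
RCAN1 internal start: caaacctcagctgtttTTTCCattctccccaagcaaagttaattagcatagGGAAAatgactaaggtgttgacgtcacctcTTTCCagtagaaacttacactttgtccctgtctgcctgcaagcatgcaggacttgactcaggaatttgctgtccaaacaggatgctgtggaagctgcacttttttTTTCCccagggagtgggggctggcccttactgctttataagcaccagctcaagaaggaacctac

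Of the 6 RCAN1 windows, the internal one shown held 4 of these cores, and the distal one and all the others held 0. Among all 35116 RefSeq windows of the same length, 55.6% held at least 1 core on either strand, the median was 1, and 1.87% held 4 or more. Of the 18 windows found for 7 members, 8 held a core. NFAT5, PPP3CA and PPP3CB had no entry in the table of promoters. These letters describe the windows and say nothing of what is bound there in T98G.

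Human gene counts summed to between 33708297 and 42154438 per library, and the smallest library, shDYRK1A 1B, also stood apart from 1A and 1C on the second principal component and had the highest share of unmapped reads (15.6%, against 8.44 to 11.9% in the other libraries). The hairpin's target fell: DYRK1A had 2227, 2234 and 1895 spike-in normalized counts in shControl and 1482, 1056 and 1285 in shDYRK1A, a knockdown mean 0.602 times the control mean. On the spike-in scale 93.6% of the 9697 genes tested were below 0, with a median log2 fold change of -0.40, and scaling by TMM, which sets the typical human gene equal in every library, moved that median to 0.00. By the study's methods each condition had the same number of T98G cells, to which a set number of fly cells was added. The counts hold no check of those cell numbers, and the source of the shift was not tested. Each member is therefore given both on the spike-in scale and relative to the typical gene (TMM). DYRK1A itself had a log2 fold change of -0.73 on the spike-in scale (edgeR adjusted p = 5.33e-06), and 11.8% of all genes tested fell further. With TMM its log2 fold change was -0.34 (edgeR adjusted p = 0.000591), a smaller fall. Of the glial markers fixed for the check, VIM, CD44 and SOX9 were abundant. In all 6 libraries together S100B and AQP4 had 0 reads, SOX2 had 3 and GFAP had 9. The T cell marker CD3E had 0 reads, although the neuronal genes MAP2, SNAP25 and SYP and the myeloid gene ITGAM were present. On the spike-in scale MAP2 had a log2 fold change of -1.64 (edgeR adjusted p = 5.38e-23; -1.24 with TMM). With the wider filterByExpr filter of edgeR SNAP25 had -1.30 and ITGAM -0.38 (edgeR adjusted p = 2.04e-11 and 0.103). SYP went the other way, at 0.45 (edgeR adjusted p = 0.0828), and at 0.81 with TMM (edgeR adjusted p = 0.00053). Among the glial markers VIM had -0.72, SOX9 -0.75 and CD44 -0.32 (edgeR adjusted p = 1.47e-07, 4.11e-06 and 0.0181). With filterByExpr OLIG2 had -0.91, NES -0.71 and CHI3L1 1.21 (edgeR adjusted p = 0.0031, 0.0151 and 5.89e-10). The part of these shifts in the members' values was not tested.

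On the spike-in scale 7 of the 9 members tested were lower in shDYRK1A, 0 were higher and 2 did not pass the test (NFATC1 and NFAT5), where 63.4% of all genes tested were lower and 1.08% higher. The test was edgeR's quasi-likelihood test, with p-values adjusted by the Benjamini-Hochberg method over 9697 genes and a threshold of 0.05. All 9 fold changes were negative, so 0 members were higher at an unadjusted p below 0.05 or with DESeq2 as well. NFATC2 was under the expression filter. The median log2 fold change of the 9 members was -0.39, against -0.40 for all genes. Relative to the typical gene (TMM), 3 members were lower (PPP3CB, PPP3CA and NFATC3), 1 was higher (NFAT5) and 5 did not pass, against 28.6% lower and 27.3% higher over all genes. The members as a set thus followed the shift of all genes, and PPP3CB was the only member past the study's fold threshold, a log2 fold change of 0.7 in either direction, which 14.3% of all genes passed downwards and 0.278% upwards on the spike-in scale. With TMM 0 members passed that threshold, against 1.93% of all genes downwards and 1.25% upwards.

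**Figure D1:**
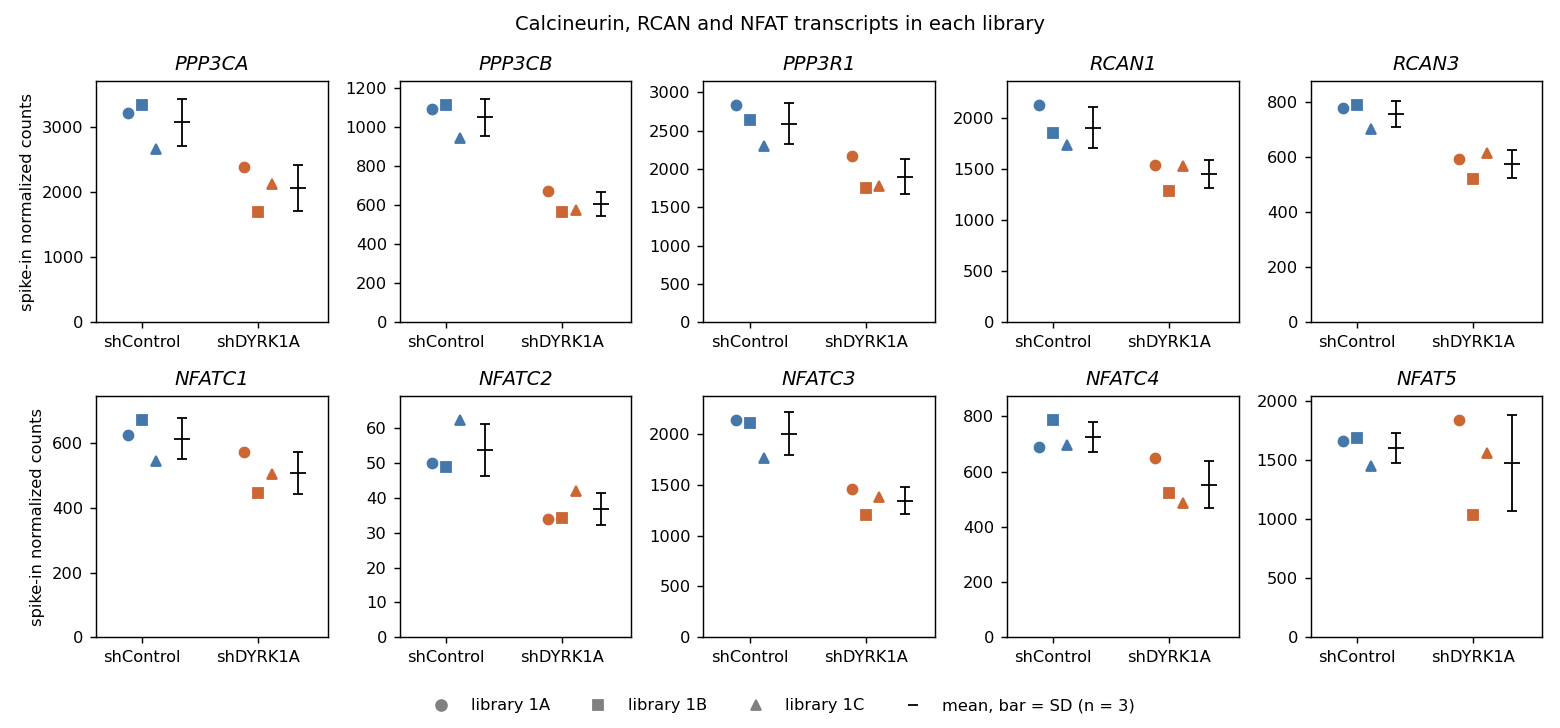
Spike-in normalized counts (y axis, from 0) of the 10 members in each shControl and shDYRK1A library, with symbols for libraries 1A, 1B and 1C and the mean and SD of 3 libraries beside them. The groups do not overlap for 8 members and overlap for NFATC1 and NFAT5, where shDYRK1A 1B lies lowest.

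PPP3CB encodes the beta isoform of the catalytic subunit (ENSG00000107758, chr10:73436428-73496024, minus strand). It had 1092, 1111 and 941 spike-in normalized counts in shControl and 674, 565 and 572 in shDYRK1A. Every knockdown library lay well below every control library. The log2 fold change was -0.80 ± 0.16 (SE, n = 3 per group; edgeR adjusted p = 3.20e-06), and 8.62% of all genes tested fell further. As CPM, which uses the human reads alone, PPP3CB was 23.1 ± 0.389 (SD, n = 3) in shControl and 17.9 ± 0.626 in shDYRK1A, again without overlap. Relative to the typical gene it fell by 0.39 on the log2 scale (edgeR adjusted p = 0.000218), and the call stood with each library left out in turn on both scales. The antisense gene PPP3CB-AS1, whose exons share 0.255% of the exonic bases of PPP3CB, had 222 to 290 raw counts per library.

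PPP3CA encodes the alpha isoform, the main catalytic subunit in brain (ENSG00000138814, chr4:101023409-101348278, minus strand). It had 3209, 3327 and 2650 spike-in normalized counts in shControl, against 2373, 1684 and 2118 in shDYRK1A. The groups did not overlap, and shDYRK1A 1B was the lowest library. Its log2 fold change was -0.57 ± 0.14 (SE, n = 3 per group; edgeR adjusted p = 0.000233). With TMM the fall was small, with a log2 fold change of -0.17 ± 0.06 (edgeR adjusted p = 0.0285), and that call was lost without shControl 1A, 1B or 1C (edgeR adjusted p = 0.0607, 0.0977 and 0.0568).

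PPP3R1 encodes the regulatory B subunit, which binds calcium (ENSG00000221823, chr2:68178857-68256237, minus strand). It had 2833, 2641 and 2306 spike-in normalized counts in shControl and 2164, 1750 and 1782 in shDYRK1A, again with no overlap. The log2 fold change was -0.45 ± 0.14 (SE, n = 3 per group; edgeR adjusted p = 0.00399), close to the median of all genes, and relative to that typical gene it was -0.05 (edgeR adjusted p = 0.476). Without shControl 1A or shDYRK1A 1C the spike-in call was lost (edgeR adjusted p = 0.0649 and 0.0645). Other genes overlap 13.7% of its exonic bases on the same strand and 20.8% on the opposite strand, and their counts came to less than 1% of those of PPP3R1.

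Among the calcineurin subunit genes outside the member list, PPP3CC, which encodes the gamma catalytic isoform, had 573, 645 and 469 spike-in normalized counts in shControl and 341, 343 and 385 in shDYRK1A. Its log2 fold change was -0.66 ± 0.17 (SE, n = 3 per group; edgeR adjusted p = 0.000323), and relative to the typical gene it was -0.24 (edgeR adjusted p = 0.0534). PPP3R2, the testis form of the B subunit, had 0 reads. PPP3CC passed the expression filter only through shControl, and with filterByExpr its log2 fold change was also -0.66 (edgeR adjusted p = 0.000399). The genes of all 3 catalytic isoforms were thus lower on the spike-in scale, as were 63.4% of all genes tested. Relative to the typical gene PPP3CC did not pass with the main filter. With filterByExpr and TMM it did, at -0.27 (edgeR adjusted p = 0.0358).

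RCAN1, the inhibitor and feedback gene, had 2126, 1851 and 1739 spike-in normalized counts in shControl and 1536, 1290 and 1527 in shDYRK1A. All 3 knockdown libraries were below all 3 controls. The log2 fold change was -0.39 ± 0.15 (SE, n = 3 per group; edgeR adjusted p = 0.0144), and 51.5% of all genes tested fell further. As CPM the groups overlapped, with 42.1 ± 2.96 (SD, n = 3) in shControl and 43.0 ± 2.47 in shDYRK1A, and relative to the typical gene the log2 fold change was 0.01 ± 0.06 (edgeR adjusted p = 0.900). The spike-in call was lost without shControl 1A, shDYRK1A 1B or shDYRK1A 1C (edgeR adjusted p = 0.152, 0.0737 and 0.0563).

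RCAN3, a less studied paralog that also binds calcineurin (ENSG00000117602, chr1:24502351-24541040, plus strand), had 779, 790 and 704 spike-in normalized counts in shControl and 595, 520 and 616 in shDYRK1A. These groups did not overlap either. Its log2 fold change of -0.39 ± 0.16 (SE, n = 3 per group; edgeR adjusted p = 0.0244) stood beside a value of 0.01 relative to the typical gene (edgeR adjusted p = 0.910). The spike-in call was lost without shControl 1A or 1B, without shDYRK1A 1B or 1C, and with no expression filter (edgeR adjusted p = 0.108, 0.105, 0.0965, 0.0688 and 0.0521).

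RCAN2, the third gene of the RCAN family and not a member of the list, was scarcely expressed. It had 13, 17 and 12 raw counts in shControl and 49, 17 and 35 in shDYRK1A. The values overlapped through shDYRK1A 1B. With filterByExpr (17530 genes, 44.2% lower and 1.97% higher on the spike-in scale) the log2 fold change was 0.96 ± 0.39 (SE, n = 3 per group; edgeR adjusted p = 0.0328). With TMM it was 1.31 (edgeR adjusted p = 0.00689). On the spike-in scale DESeq2's adjusted p was 0.0772 and edgeR's with no filter was 0.0552, and leaving out shControl 1A or 1C or shDYRK1A 1A or 1C also ended the edgeR call (adjusted p = 0.0839, 0.111, 0.302 and 0.0708). The log2 fold change was 0.54 without shDYRK1A 1A and 1.27 without shDYRK1A 1B. Beside RCAN1 and RCAN3 its counts are too few to set a level for the family.

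NFATC3 was the most abundant NFAT transcript per kilobase of exon, and its product is kept in the cytoplasm until calcineurin acts (ENSG00000072736, chr16:68084751-68229259, plus strand). It had 2135, 2110 and 1761 spike-in normalized counts in shControl and 1458, 1198 and 1374 in shDYRK1A. The groups were apart on this scale and as CPM, at 44.1 ± 0.251 (SD, n = 3) in shControl and 39.8 ± 1.44 in shDYRK1A. Its log2 fold change was -0.58 ± 0.15 (SE, n = 3 per group; edgeR adjusted p = 0.000348). Relative to the typical gene it was -0.17 ± 0.05 (edgeR adjusted p = 0.0116), a small fall whose call stood with each library left out. Other genes overlap 19.0% of its exonic bases on the same strand and 33.4% on the opposite strand, and the largest of them had 1.15% as many counts.

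NFATC4, another calcineurin-dependent NFAT, known for roles in heart and neurons (ENSG00000100968, chr14:24365673-24379604, plus strand), had 689, 786 and 697 spike-in normalized counts in shControl and 648, 523 and 485 in shDYRK1A. The highest knockdown library, 1A, was just below the lowest control. The log2 fold change was -0.39 ± 0.16 (SE, n = 3 per group; edgeR adjusted p = 0.0252) and 0.00 relative to the typical gene (edgeR adjusted p = 0.991). Leaving out shControl 1A or 1B or shDYRK1A 1B or 1C ended the spike-in call (edgeR adjusted p = 0.0658, 0.145, 0.0691 and 0.207), as did using no expression filter (0.0533).

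NFATC1, which drives osteoclast and lymphocyte programmes (ENSG00000131196, chr18:79395856-79529325, plus strand), had 626, 672 and 546 spike-in normalized counts in shControl and 573, 445 and 505 in shDYRK1A. The groups overlapped through shDYRK1A 1A. Its log2 fold change of -0.28 ± 0.16 (SE, n = 3 per group; edgeR adjusted p = 0.123) did not pass the test, but did without shControl 1C (log2 fold change -0.35, edgeR adjusted p = 0.0365). As CPM it ranged over 13.0 to 14.0 in shControl and 14.2 to 15.6 in shDYRK1A, where every knockdown library was the higher, and relative to the typical gene the log2 fold change was 0.12 (edgeR adjusted p = 0.145). The sign for NFATC1 therefore depended on the scale, and neither value passed.

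NFATC2, the main NFAT of resting T cells (ENSG00000101096, chr20:51386957-51562831, minus strand), had 41, 43 and 64 raw counts in shControl and 36, 37 and 51 in shDYRK1A. On the spike-in scale this came to 53.7 ± 7.50 (SD, n = 3) normalized counts in shControl and 36.8 ± 4.54 in shDYRK1A. The normalized groups did not overlap, yet with the filterByExpr filter the log2 fold change of -0.55 ± 0.29 (SE, n = 3 per group; edgeR adjusted p = 0.114) did not pass. As CPM the groups overlapped, at 1.20 ± 0.303 (SD, n = 3) in shControl and 1.10 ± 0.166 in shDYRK1A, and with TMM the log2 fold change was -0.19 (edgeR adjusted p = 0.580). With NFATC2 included, 8 of the 10 members had groups that did not overlap on the spike-in scale, all with shDYRK1A lower, and the same held for 63.6% of all genes tested, with 1.59% apart in the other direction.

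NFAT5, the osmotic-stress member that calcineurin does not control (ENSG00000102908, chr16:69565094-69704666, plus strand), had the highest fold change of the tested members on both scales. It had 1664, 1693 and 1454 spike-in normalized counts in shControl and 1841, 1040 and 1561 in shDYRK1A. Knockdown library 1A was above every control, 1C was within their range and 1B was far below them. The log2 fold change was -0.11 ± 0.15 (SE, n = 3 per group; edgeR adjusted p = 0.487), and it turned to 0.09 without shDYRK1A 1B (edgeR adjusted p = 0.643).

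On the human reads alone NFAT5 had 34.6, 35.4 and 36.2 CPM in shControl and 50.2, 33.3 and 46.9 CPM in shDYRK1A. Here 1A and 1C were above all controls and 1B was below them. Relative to the typical gene the log2 fold change was 0.27 ± 0.11 (edgeR adjusted p = 0.0473). It was 0.42 without shDYRK1A 1B (edgeR adjusted p = 2.10e-06) and 0.17 without shDYRK1A 1A (edgeR adjusted p = 0.213), and the call was also lost without any of the other 4 libraries (edgeR adjusted p = 0.0897 to 0.133). With filterByExpr and TMM the log2 fold change of NFAT5 was 0.24 and did not pass (edgeR adjusted p = 0.0913). Library 1B was also the one with the highest share of unmapped reads, and the part of that in the NFAT5 value was not tested. NFAT5 lies 1.34 Mb from NFATC3 on chromosome 16.

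**Figure D2:**
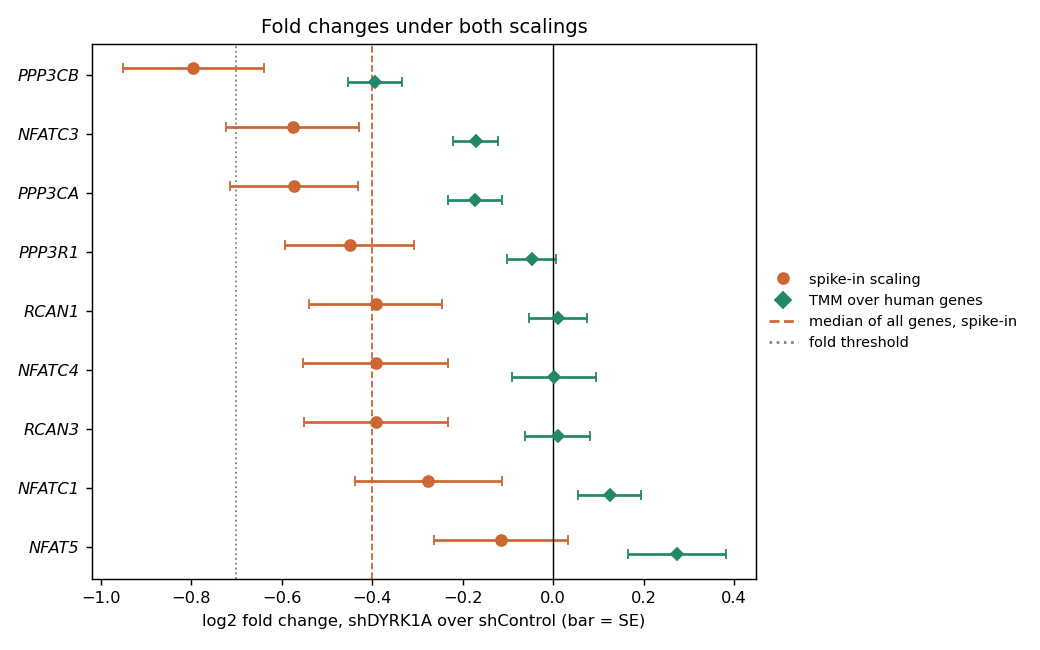
Log2 fold changes of the 9 tested members, shDYRK1A over shControl (x axis, bars are SE), with spike-in scaling (circles) and with TMM scaling over human genes (diamonds), the dashed line being the median of all genes on the spike-in scale and the dotted line the fold threshold. PPP3CB lies lowest at -0.80 and -0.39, RCAN1, RCAN3 and NFATC4 lie on the median and at about 0.01 or less with TMM, and NFAT5 lies highest at -0.11 and 0.27.

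Levels of different genes were compared as spike-in normalized counts per kilobase of exon. In shControl the order was PPP3R1 (771), PPP3CA (587), RCAN1 (273), NFATC3 (227), PPP3CB (206), RCAN3 (107), NFAT5 (97.8), NFATC4 (85.8), NFATC1 (67.8) and NFATC2 (6.48). Every pair of neighbours kept this order in all 3 control libraries, and the mean log2 ratio of each pair was larger than its SD, the tightest being NFAT5 over NFATC4 at 0.19 ± 0.11 (SD, n = 3). In shDYRK1A all pairs but RCAN3 and NFAT5 kept their order in 3 of 3 libraries. RCAN3 was above NFAT5 in only 1 of the 3. The exon length used is the union over all annotated transcripts, so a gene that uses short isoforms is understated. It keeps bases shared with other genes, on the same strand 19.0% for NFATC3, 13.7% for PPP3R1 and 9.68% for NFAT5. Reads on such bases may not have been counted, so close neighbours in this order could change places.

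Within the NFAT family, as shares of the 5 genes' counts per kilobase, NFATC3 held 46.8% ± 1.47 (SD, n = 3) in shControl and 41.6% ± 2.08 in shDYRK1A. NFAT5 held 20.3, 20.0 and 20.2% in shControl and 26.6, 20.2 and 25.8% in shDYRK1A. Its share was thus the same in knockdown 1B as in the controls and larger in 1A and 1C. NFATC1 went from 14.0 to 15.2%, NFATC4 from 17.7 to 17.8% and NFATC2 from 1.35 to 1.22%, as means of 3 libraries.

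**Figure D3:**
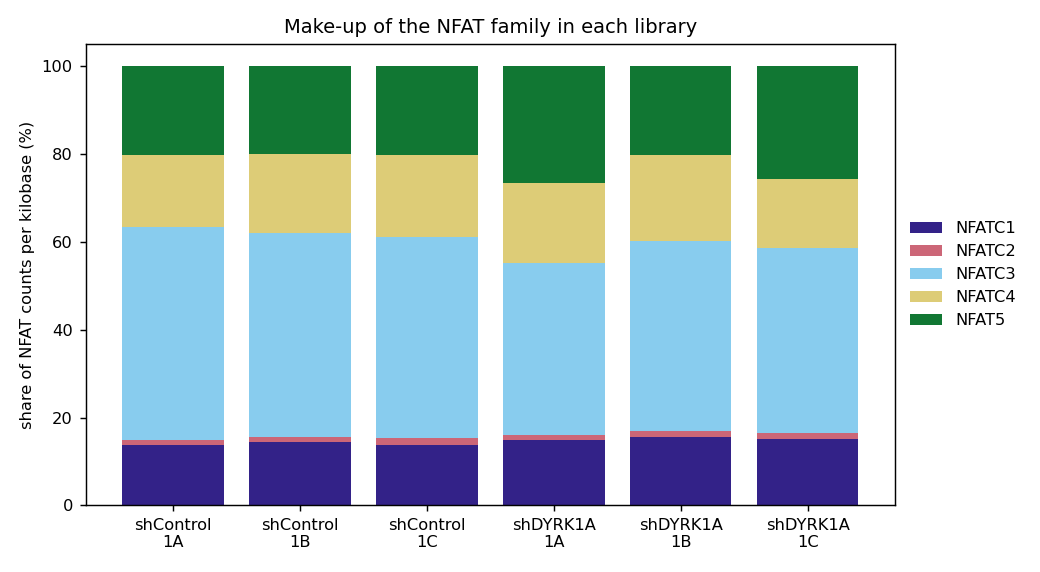
Share of each NFAT gene (y axis, percent of the family's counts per kilobase of exon) in each of the 6 libraries. NFATC3 is the largest part in every library, and NFAT5 is wider in shDYRK1A 1A and 1C (26.6 and 25.8%) than in the other 4 libraries.

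Ratios between members within a library do not depend on the spike-in. For 4 of them an exact permutation test (two-sided) was run over the libraries. With 3 against 3 it cannot go below 0.1, so none could pass 0.05. The log2 ratio of RCAN1 to the catalytic subunits PPP3CA plus PPP3CB was -1.45, -1.69 and -1.48 in shControl and -1.42, -1.23 and -1.25 in shDYRK1A. The RCAN1 transcript relative to those of PPP3CA and PPP3CB was higher in every knockdown library than in any control. The mean difference was 0.24 (exact p = 0.1, Benjamini-Hochberg adjusted over the 4 ratios 0.4), though shDYRK1A 1A exceeded shControl 1A by little. RCAN3, PPP3CC and PPP3R1 are not part of this ratio, and these libraries do not measure protein.

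The log2 ratio of PPP3CA to PPP3CB was 1.52, 1.55 and 1.46 in shControl and 1.78, 1.54 and 1.85 in shDYRK1A. Knockdown 1A and 1C were above all controls and 1B was among them (difference 0.22, exact p = 0.2, adjusted 0.4). RCAN1 over RCAN3 differed by 0.00 (exact p = 0.8, adjusted 0.8). NFATC1 to NFATC4 together over NFAT5 was 1.99 ± 0.01 (SD, n = 3) in shControl and 1.46, 1.99 and 1.53 in shDYRK1A (difference -0.33, exact p = 0.3, adjusted 0.4), where again 1B sat with the controls.

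**Figure D4:**
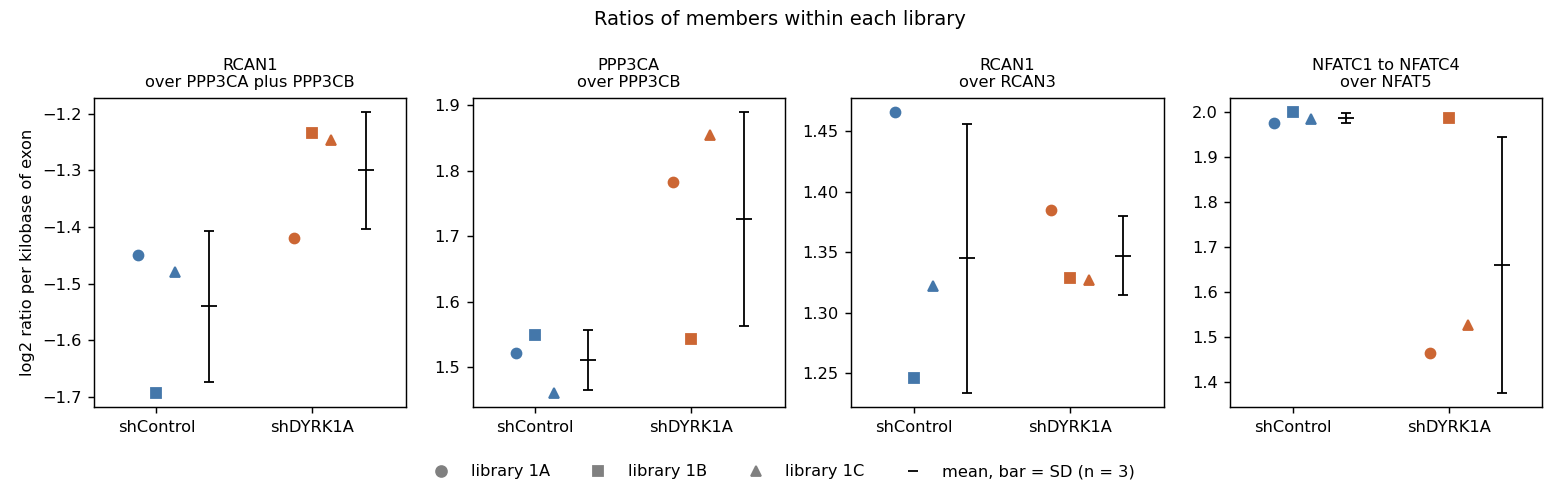
Log2 ratios of members within each library (y axes, per kilobase of exon, each panel with its own range), with the mean and SD of 3 libraries per group. The groups separate only for RCAN1 over PPP3CA plus PPP3CB, and shDYRK1A 1B lies with the controls for PPP3CA over PPP3CB and for NFATC1 to NFATC4 over NFAT5.

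The genes around calcineurin and NFAT were counted by list on the spike-in scale, to be read against the 63.4% of all genes that were lower. Counts with TMM are to be read against 28.6% lower and 27.3% higher over all genes. Of 10 tested genes for calmodulin and calcineurin regulators, 7 were lower, 0 higher and 3 did not pass, with a median log2 fold change of -0.45. The ends of that list were both calmodulin genes, CALM2 at -0.64 (edgeR adjusted p = 7.05e-06) and CALM3 at 0.05 (edgeR adjusted p = 0.740). With TMM CALM3 rose by 0.45 (edgeR adjusted p = 1.33e-05), and 1 gene of the list was lower and 3 higher. HOMER3, counted as lower on the spike-in scale, passed the expression filter only through shControl. With filterByExpr its log2 fold change was -0.46 on that scale (edgeR adjusted p = 0.0155).

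Of the 12 tested NFAT kinases, which counter calcineurin and include the hairpin's target, 7 were lower, 1 was higher and 4 did not pass, with a median of -0.49. With TMM 6 were lower, 3 higher and 3 did not pass, beside 28.6% lower and 27.3% higher over all genes. DYRK2, counted as lower on both scales, passed the expression filter only through shControl. With filterByExpr its log2 fold change was -0.67 on the spike-in scale (edgeR adjusted p = 0.000323). MAPK9, which encodes the stress kinase JNK2, was lowest at -0.91 ± 0.14 (SE, n = 3 per group; edgeR adjusted p = 3.18e-09). DYRK1B, the closest relative of DYRK1A, was highest, with 467, 576 and 424 spike-in normalized counts in shControl and 817, 739 and 751 in shDYRK1A. Its groups were apart, with a log2 fold change of 0.65 ± 0.16 (edgeR adjusted p = 0.000222) and of 1.06 relative to the typical gene.

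Store-operated calcium entry, the STIM and ORAI route that feeds calcineurin with calcium, had 11 tested genes, of which 7 were lower, 0 higher and 4 did not pass, with a median of -0.40. The receptor channel gene ITPR3 was lowest at -0.67 (edgeR adjusted p = 1.06e-05), and the calcium channel gene ORAI3 was highest at 0.03 (edgeR adjusted p = 0.884). With TMM 2 genes of this list were lower, 2 higher and 7 did not pass, and ORAI3 was at 0.44 (edgeR adjusted p = 0.00198). All 3 tested genes for carrying NFAT across the nuclear envelope were lower, and with TMM 2 were lower and 1 did not pass. XPO1, the exportin that takes NFAT out of the nucleus, had the largest fall at -0.92 ± 0.13 (edgeR adjusted p = 1.63e-10; -0.52 relative to the typical gene), while the importin gene KPNA1 had -0.30 (edgeR adjusted p = 0.0493), lost with 2 wider filters and with 4 of the 6 libraries left out in turn (edgeR adjusted p = 0.0590 to 0.228).

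Of 8 other calcineurin substrates 3 were lower, 0 higher and 5 did not pass, with a median of -0.25. They ran from CRTC3 at -0.48 (edgeR adjusted p = 0.00291) to CRTC1 at 0.01 (edgeR adjusted p = 0.953), both coactivators of CREB. With TMM 0 substrates were lower and 3 higher, CRTC1 among them at 0.41 (edgeR adjusted p = 0.000421).

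Of 12 NFATc target genes known mostly from T cells, 9 were under 1 CPM and only RCAN1 and PTGS2 were tested. PTGS2, which encodes the prostaglandin synthase COX-2, had 276, 247 and 231 spike-in normalized counts in shControl and 637, 417 and 624 in shDYRK1A. Every knockdown library was above every control, and the log2 fold change was 1.16 ± 0.17 (SE, n = 3 per group; edgeR adjusted p = 4.86e-10), or 1.55 relative to the typical gene. PTGS2 passed the expression filter only through shDYRK1A, with 5.56 CPM in shControl and 16.5 in shDYRK1A. With the wider filterByExpr filter its log2 fold change was also 1.16 (edgeR adjusted p = 7.09e-10). Of the tested targets, RCAN1 was lower and PTGS2 higher on the spike-in scale, while with TMM RCAN1 was at 0.01. CXCL8, which encodes the chemokine interleukin-8, was above 1 CPM but under the filter, at 2.26 CPM in shControl and 3.91 in shDYRK1A. With filterByExpr its log2 fold change was 0.39 (edgeR adjusted p = 0.131) on the spike-in scale and 0.74 with TMM (edgeR adjusted p = 0.00415).

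Of the 4 tested osmotic target genes of NFAT5, 3 were lower, 0 higher and 1 did not pass, with a median of -0.44. SLC5A3, the inositol transporter, was lowest at -0.97 ± 0.14 (edgeR adjusted p = 4.82e-11; -0.57 relative to the typical gene). AKR1B1, the aldose reductase that makes sorbitol, was highest at -0.12 (edgeR adjusted p = 0.416) and rose by 0.29 relative to the typical gene (edgeR adjusted p = 0.000177). No common direction was seen among these targets relative to the typical gene, where 1 was lower, 1 higher and 2 did not pass.

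**Figure D5:**
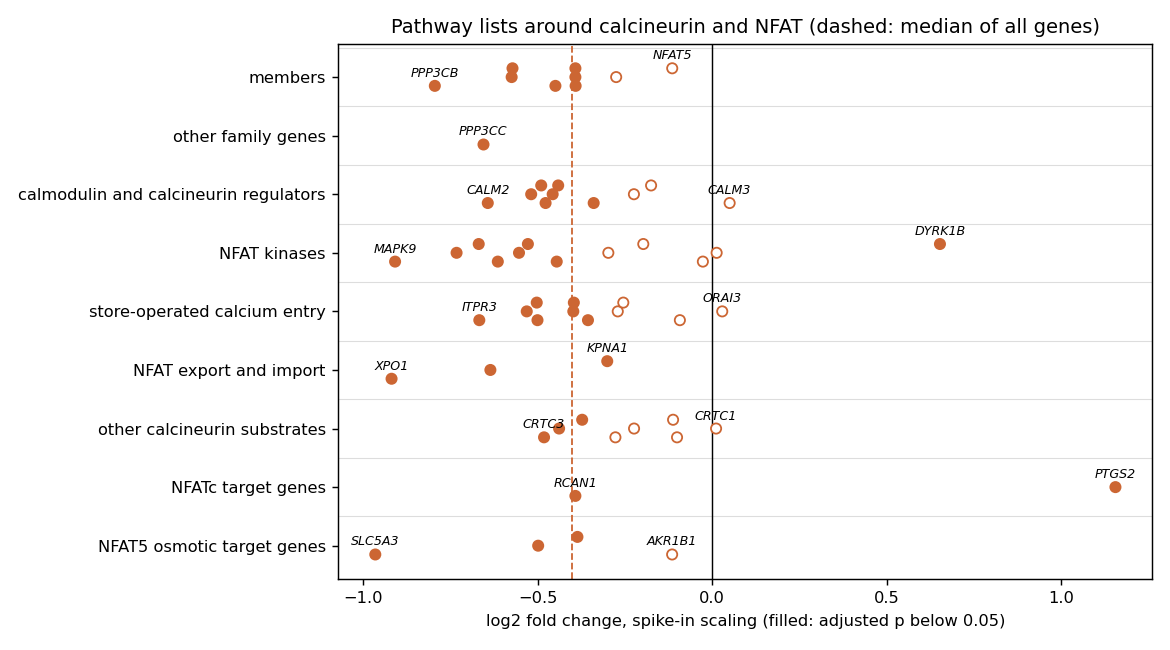
Log2 fold changes on the spike-in scale (x axis) of tested genes in each list, 1 point per gene, filled where the edgeR adjusted p was below 0.05, with names at both ends of each list and a dashed line at the median of all genes. Most points lie to the left of 0 around the median of -0.40, and DYRK1B (0.65) and PTGS2 (1.16) are the only filled points to the right.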

How the data were processed

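RNA-Seq of 6 T98G libraries, 3 per group by sample title, was analysed. The authors deposited raw gene counts per library and a signal table, the counts divided by a constant per library derived from fly spike-in reads. STAR, DESeq2, hg38 and dm3 are named in the submitters' processing notes, while the STAR version, the annotation and the strand setting are not given in the sources used here. Member coordinates equalled those of GENCODE v29. A deposited table of the authors' own comparison (fold changes and p-values) was not used. Columns that matched no sample numbered 0. Rows that name no gene (18.9 to 25.0% of reads) stayed out of library sizes and tests.

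The constants (0.821 to 1.21) entered edgeR 4.0.16 (glmQLFit and glmQLFTest, robust) in R 4.3.3 as size factors, for 9697 genes with a mean above 10 normalized CPM, with Benjamini-Hochberg adjustment. SE was obtained from the fold change and the F statistic. Per-kilobase values used the union of GENCODE exons. Steps were tested on simulated data. Alternatives comprised scaling by TMM or median of ratios, DESeq2 1.42.0, filterByExpr, no filter beyond 1 count, the library letter as a block, leaving out each library, log2 thresholds of 0.5 and 1, and ratios without lengths. TMM with each library left out was chosen after seeing the data. All 10 members, DYRK1A, and the lowest and highest tested gene of each pathway list are named. RCAN2, CXCL8, DYRK2, HOMER3 and the cell type markers were named after their values were seen. Members and lists were chosen with earlier results of these data known. Depth limits precision for NFATC2 and RCAN2, with at most 64 reads per library each.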

Additional observations from a re-analysis of the deposited data

How the results depend on the processing

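With TMM or median-of-ratios scaling the members lower numbered 3, those higher 1 and those lower past the fold threshold 0. At a log2 threshold of 0.5 the last number was 3, and at 1 it was 0. With each library left out in turn, 3 to 8 members were lower on the spike-in scale, and with TMM 0 or 1 was higher. The TMM call of NFAT5 was also lost with filterByExpr (edgeR adjusted p = 0.0913). The sign turned with TMM and median-of-ratios scaling for RCAN1 (0.0106 and 0.0136), RCAN3 (0.0107 and 0.0138), NFATC1 (0.12 and 0.13), NFATC4 (0.00148 and 0.00452), NFAT5 (0.27 and 0.28), AKR1B1 (0.29 and 0.29) and KPNA1 (0.10 and 0.10), a shift that the scaling sets for all genes. For RCAN1, RCAN3 and NFATC4 this held only with the main filter. With filterByExpr and TMM they were at -0.0195, -0.0194 and -0.0299. With each library left out in turn the value ranged, on the spike-in scale, from -0.301 to 0.0852 for NFAT5, -0.0129 to 0.102 for CALM3, -0.0919 to 0.106 for CRTC1 and -0.0561 to 0.108 for ORAI3. With TMM it ranged from -0.0471 to 0.0465 for RCAN1, -0.0423 to 0.0570 for RCAN3 and -0.0740 to 0.0855 for NFATC4, and the ratio of RCAN1 to RCAN3 differed by -0.0471 to 0.0626. DESeq2 changed no call of a tested member. The library letters were not taken as pairs: same-letter libraries deviated together with correlations of 0.151, 0.0729 and 0.128, although each library correlated best with its own letter. With the letter as a block 7 members were lower, PPP3CB was at -0.80, and no member's call changed, while that of KPNA1 was lost (edgeR adjusted p = 0.0603). Where a call was lost, the cause was not tested.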
